A study of Ipomoea batatas with 28 samples.

Results

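The transcripts described here are the 100 abundant IDs whose share of the messenger RNA varied least while sweet potato roots thickened. They were chosen from the deposited TPM table (a transcript's share of its library, corrected for transcript length and scaled to a fixed total). Of 99697 rows, 1343 IDs had a mean of 100 TPM or more over the 28 libraries, and the 100 with the smallest standard deviation (SD) of log2(TPM + 1) over all libraries were taken, which left 1243 other abundant IDs. The values that chose the IDs are the values described below, so their small spread is the rule and not a result.

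All roots were wild type Ipomoea batatas, a hexaploid root crop, and RNA came from the middle of the root at 7 stages with 4 biological replicates each. Fibrous roots were S4 (1.5 mm in diameter) and S8 (2 mm), pencil roots were S10 (3.5 mm) and S12 (5 mm), and storage roots were S14 (10 mm), S16 (15 mm) and S20 (25 mm), which gave 8, 8 and 12 libraries. No treatment or transgene is named in the labels, and no processing batch is named either. In bulk root tissue, fewer cells of a type and less RNA per cell cannot be told apart. The depth of sequencing is not kept in TPM, so the spread between replicates was the measure of error.

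When a fibrous root becomes a storage root, cambium cells divide and starch-filled parenchyma takes up most of the root. Messenger RNA of starch and storage protein genes becomes abundant. Transcripts that hold a steady share through such a change serve in plant studies as reference genes, against which other transcripts are scaled. The reference genes in common use encode parts of the translation, protein turnover, cytoskeleton and glycolysis machinery that every cell needs. Whether the IDs here belong to those families was not analysed, because 0 of the 100 matched the reference table of 175826 rows that was used, so each is called by its deposited ID and no marker of root tissue could be looked up.

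The stable IDs spanned a narrow range of spread and a wide range of level. Their SD of log2(TPM + 1) ran from 0.18 to 0.34, with a median of 0.30, against a median of 0.91 in the other 1243 abundant IDs. The ratio of the highest to the lowest library had a median of 2.24 and ran from 1.62 to 3.35 over the 28 libraries. It was under 2 in 22 IDs and over 3 in 3 IDs. Mean levels ran from 100.2 to 842 TPM with a median of 137, against a median of 161 in the other abundant IDs. Every stable ID was above 0 in every library, 98 never fell under 50 TPM and 33 never fell under 100 TPM. All 100 passed the filter on low values used in the fits.

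**Figure D1:**
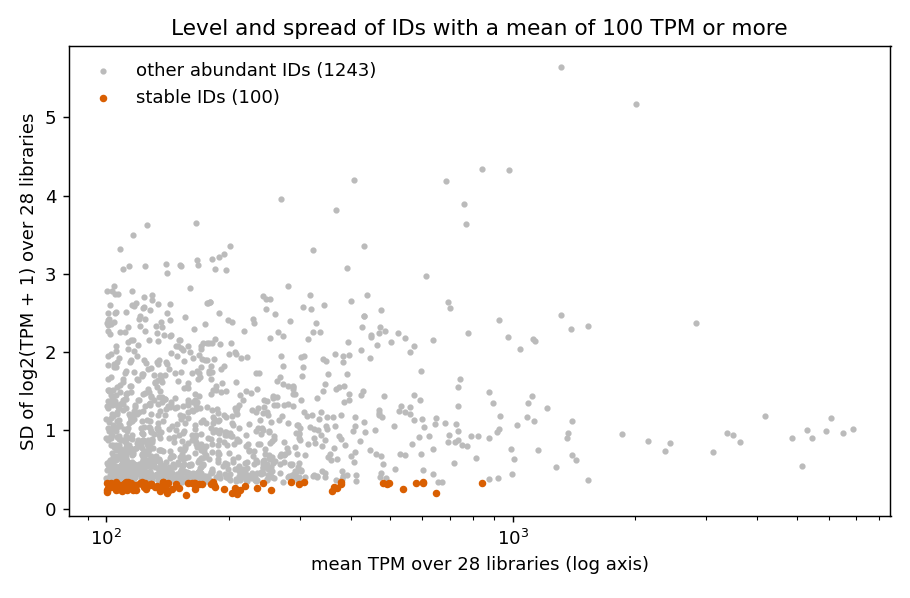
Each point is an ID with a mean of 100 TPM or more, with its mean TPM over 28 libraries on a log axis and its SD of log2(TPM + 1) on the vertical axis. The 100 stable IDs form the lower edge, between 0.18 and 0.34, and most of them lie at the low end of the level axis.

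Both limits of the rule cut through a continuum. The 100th ID, G20742_TU33908, had an SD of 0.3416 and a mean of 284 TPM, and the first ID outside, G30556_TU50058, had an SD of 0.3419 and a mean of 670 TPM. On the level side, G26659_TU43790 entered with a mean of 100.2 TPM, while G9962_TU16377 stayed outside at 99.4 TPM with an SD of 0.32. A further 27 IDs with means of 90 to 100 TPM, G9962_TU16377 among them, had an SD within that of the stable IDs. A spread as small as that of the list was found in 210 of 1966 IDs at 50 to 100 TPM (10.7%) and in 75 of 874 at 100 to 200 TPM (8.58%). It was found in 19 of 353 IDs at 200 to 500 TPM (5.38%) and by 6 of 116 at 500 TPM or more (5.17%).

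The smallest SD belonged to G10230_TU16815. It held 111 to 176 TPM in the 8 fibrous libraries with a median of 145, 146 to 180 TPM in the 8 pencil libraries with a median of 161, and 126 to 190 TPM in the 12 storage libraries with a median of 163. The 3 classes overlapped over most of their range, and S8 replicate 5 was the lowest library. The next was MSTRG.32084, at 181 ± 19.6 TPM in fibrous (SD, n = 8), 214 ± 16.5 in pencil (n = 8) and 227 ± 24.5 in storage roots (n = 12). Its libraries lay closer together within stages than those of any other stable ID, with a pooled SD of 0.12 on the log2 scale. G12461_TU20479 held 195 ± 28.3, 215 ± 11.9 and 201 ± 30.3 TPM in the same order, with all pencil libraries inside the range of the fibrous ones. G11855_TU19511 held 143 ± 25.2, 143 ± 15.8 and 138 ± 21.6 TPM, with almost the same mean in all classes.

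G39584_TU64944 combined a high level with a small spread, being 4th by SD and second by mean. Its fibrous libraries held 497 to 689 TPM with a median of 615, its pencil libraries 541 to 750 TPM with a median of 605, and its storage libraries 491 to 795 TPM with a median of 728. Its highest library was only 1.62 times its lowest, the smallest such ratio in the list. The most abundant member was MSTRG.71095 with a mean of 842 TPM, which was less even. It held 783 ± 101.1 TPM in fibrous (SD, n = 8), 992 ± 137 in pencil (n = 8) and 783 ± 200.2 in storage roots (n = 12), and its S20 libraries, at 559 ± 65.4 TPM (SD, n = 4), lay below those of S16, at 969.6 ± 57.6 TPM. The third by level, G37428_TU61313, held 470 ± 82.6, 574 ± 66.2 and 709 ± 121 TPM in fibrous, pencil and storage roots. It was highest in S20 replicate 1, at 967 TPM, the library in which 43 other stable IDs had their lowest value.

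**Figure D2:**
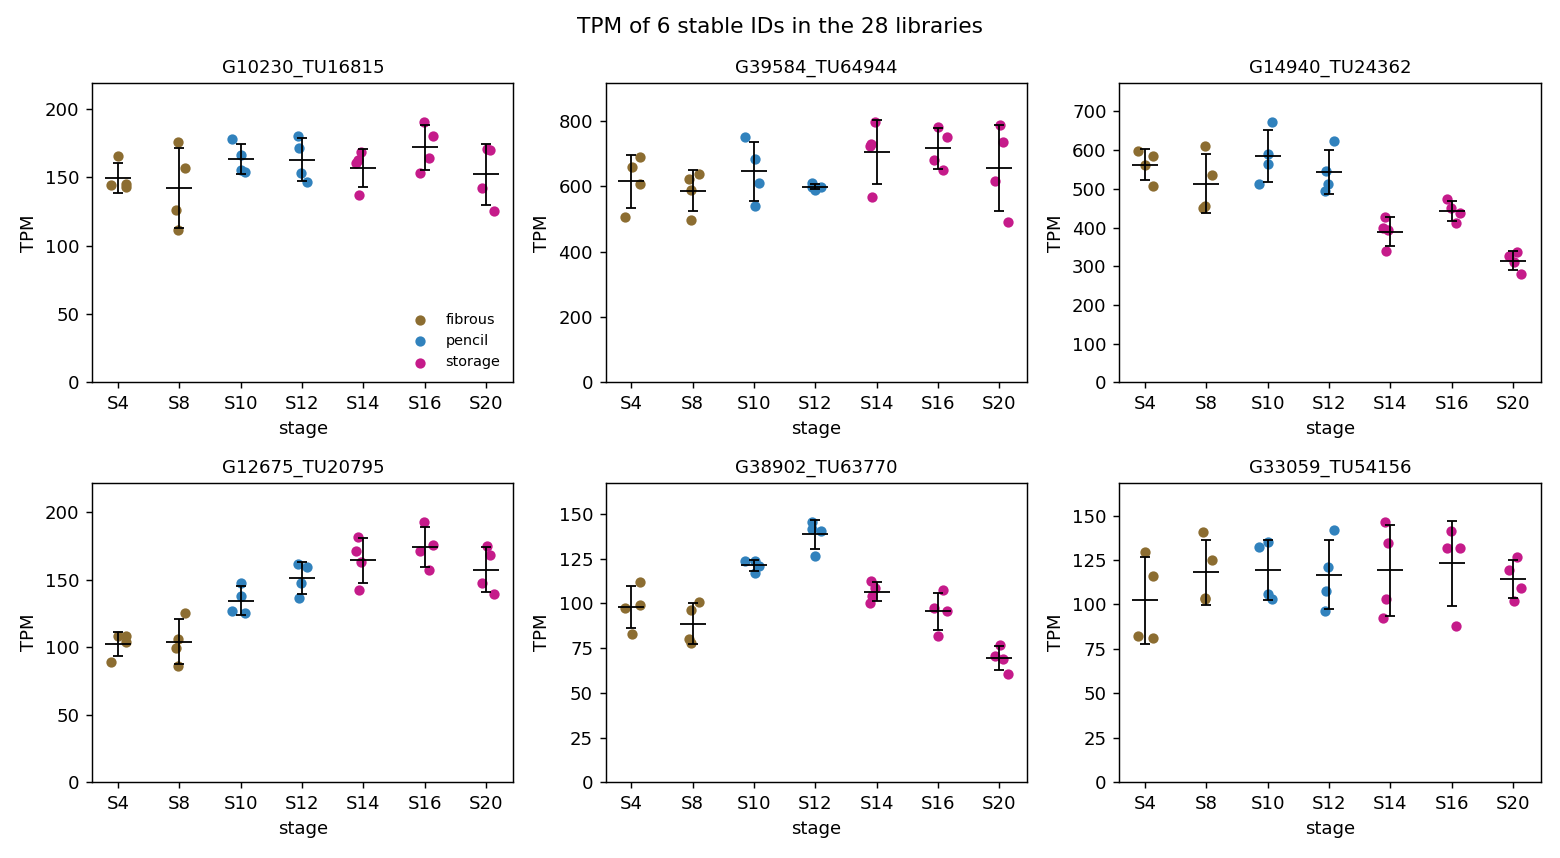
TPM of 6 stable IDs in every library by stage, with colours for root classes and black bars for the stage mean and SD (n = 4). G10230_TU16815 and G39584_TU64944 show overlapping classes, G14940_TU24362 is lower and G12675_TU20795 higher in storage than in fibrous roots, G38902_TU63770 peaks at S12, and the stages of G33059_TU54156 overlap.

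A small total spread did not mean that a profile was flat over the stages. The part of an ID's variance that lay between stages ran from 11.9% to 86.9% with a median of 49.7%, against a median of 73.3% in the other abundant IDs. The spread within stages had a median of 0.22 on the log2 scale, against 0.50 in the others. The rule did not use the stage of a library, but it set a ceiling on the sum of these parts. Both comparisons with the other abundant IDs are therefore a description and not a result. At the lower end stood G33059_TU54156 with 11.9% between stages. Its libraries held 81.1 to 141 TPM in fibrous roots with a median of 110, 96.5 to 142 TPM in pencil roots with a median of 114, and 88.0 to 146 TPM in storage roots with a median of 123.

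At the upper end stood G38902_TU63770, with 86.9% of its variance between stages and a mean of 102 TPM. Its fibrous stages held 97.8 ± 11.8 TPM (S4) and 88.6 ± 11.5 TPM (S8), its pencil stages 121 ± 3.20 TPM (S10) and 138 ± 8.22 TPM (S12). Its storage stages then held 106 ± 5.32 TPM (S14), 95.5 ± 10.4 TPM (S16) and 69.2 ± 6.73 TPM (S20), each a mean and SD of 4 libraries. Every pencil library (117 to 145 TPM) lay above every fibrous library (77.7 to 112 TPM) and every storage library (60.5 to 113 TPM). The pencil minus fibrous log2 difference was 0.48 (SE 0.09, limma adjusted p = 0.000207) and the storage minus pencil difference was -0.54 (SE 0.08, limma adjusted p = 8.18e-06). With median-of-ratios scaling the first of these calls was lost, at 0.09 (limma adjusted p = 0.416), and the second was -0.74 (limma adjusted p = 2.47e-08). Quantile normalization kept both, at 0.45 (limma adjusted p = 0.000163) and -0.35 (limma adjusted p = 0.000414). With median-of-ratios factors taken from the abundant IDs alone, they were 0.12 (limma adjusted p = 0.416) and -0.27 (limma adjusted p = 0.0119).

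Differences between stages were tested with limma on log2(TPM + 1) over all IDs that passed the filter of at least 1 TPM in at least 4 libraries, and p-values were adjusted over all 75757 of them. The rule capped the spread that such a test looks for, so counts over the stable IDs are a description. The F test over the 7 stages passed an adjusted p of 0.05 for 49 of the 100 stable IDs, where 61.9% of all IDs tested and 85.8% of the 1343 abundant IDs passed. Under median-of-ratios scaling the count was 57, where 54.9% of all IDs and 72.2% of the abundant IDs passed, and under quantile normalization it was 74, where 56% and 88.8% passed. In each of the 3 class comparisons 0 stable IDs were called with a log2 difference of 1 or more (limma), which the rule left almost no room for. Of all IDs tested 32.7% were so called between storage and fibrous, 11.8% between pencil and fibrous and 16.3% between storage and pencil roots, and of the abundant IDs 52.4%, 27% and 38.6%. The largest storage minus fibrous difference of a stable ID was 0.68 in TPM as deposited, a factor of 1.60. With median-of-ratios scaling the differences reached -1.09 and with quantile normalization 1.03, so that 1 stable ID passed the threshold of 1 on each of these scales, where 26.8% of all IDs did on either. Counting the F test and the 3 class comparisons together in TPM as deposited, 30 stable IDs passed none of them. Among these were G10230_TU16815, G12461_TU20479, G39584_TU64944 and G11855_TU19511. No share over all IDs is given for this count, so it is a description of that scale. With median-of-ratios scaling the storage minus fibrous differences of the IDs named were -0.45, -0.55, -0.39 and -0.63. With quantile normalization they were 0.37, 0.31, 0.63 and 0.18.

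Between storage and fibrous roots 41 stable IDs were higher and 2 lower in storage roots (limma, adjusted p under 0.05), where 48% of all IDs tested were higher and 16.1% lower. Among the 1343 abundant IDs the shares were 42.4% and 37.5%. The median log2 difference was 0.22 over the stable IDs, 0.12 over the other abundant IDs and 0.45 over all IDs tested, and 83 of the 100 were above 0. These directions belong to TPM as deposited: with median-of-ratios scaling, which sets each library by its typical ID, 0 were called higher and 70 lower, where 30.6% and 25.8% of all IDs and 21% and 50.9% of the abundant IDs were. With quantile normalization 82 were called higher and 0 lower, where 32.5% and 24.1% of all IDs and 50.1% and 34.8% of the abundant IDs were. For 5 stable IDs every storage library lay above every fibrous one, and for 0 below. These shares were 14.1% and 3.99% of all IDs tested and 13.3% and 19.6% of the abundant IDs.

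The largest differences of either sign were as follows. G12675_TU20795 held 86.0 to 126 TPM in the 8 fibrous libraries with a median of 105, 125 to 162 TPM in the 8 pencil libraries with a median of 143, and 139 to 193 TPM in the 12 storage libraries with a median of 170. Every storage library lay above every fibrous library, by a log2 difference of means of 0.68 (SE 0.09, limma adjusted p = 2.56e-07). G48276_TU77563 went from 99.2 ± 12.5 TPM in fibrous (SD, n = 8) to 157 ± 18.1 in storage roots (n = 12), a log2 difference of 0.66 (SE 0.09, limma adjusted p = 1.43e-06). Both calls were lost with median-of-ratios scaling, where the differences were 0.09 and 0.08.

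G14940_TU24362 was the most reduced. It held 449 to 611 TPM in fibrous libraries with a median of 548, 494 to 672 TPM in pencil libraries with a median of 555, and 281 to 473 TPM in storage libraries with a median of 396. Fibrous libraries overlapped both other classes, every storage library lay below every pencil library, and the storage minus fibrous log2 difference was -0.50 (SE 0.09, limma adjusted p = 1.9e-05). The other lower ID, G856_TU1411, went from 129 ± 25.5 TPM (SD, n = 8) to 102 ± 20.9 (n = 12), a log2 difference of -0.33 (SE 0.11, limma adjusted p = 0.0144), with overlapping libraries. Both calls were lost with quantile normalization, where the differences were -0.03 and -0.14.

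A ratio of TPM values within a library is not altered by dividing that library by a factor, as median-of-ratios scaling does, although quantile normalization can alter it. The TPM of G12675_TU20795 divided by that of G14940_TU24362 was 0.150 to 0.234 in fibrous libraries with a median of 0.191, 0.187 to 0.328 in pencil libraries, and 0.362 to 0.563 in storage libraries with a median of 0.427. The storage libraries lay above all others. The pair was chosen for its opposite differences, so this separation is a description. The mean ratio was 0.194 ± 0.0267 in fibrous (SD, n = 8), 0.256 ± 0.0401 in pencil (n = 8) and 0.439 ± 0.0556 in storage roots (n = 12), although the SDs of both IDs over all libraries, 0.32 and 0.33, were small.

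**Figure D3:**
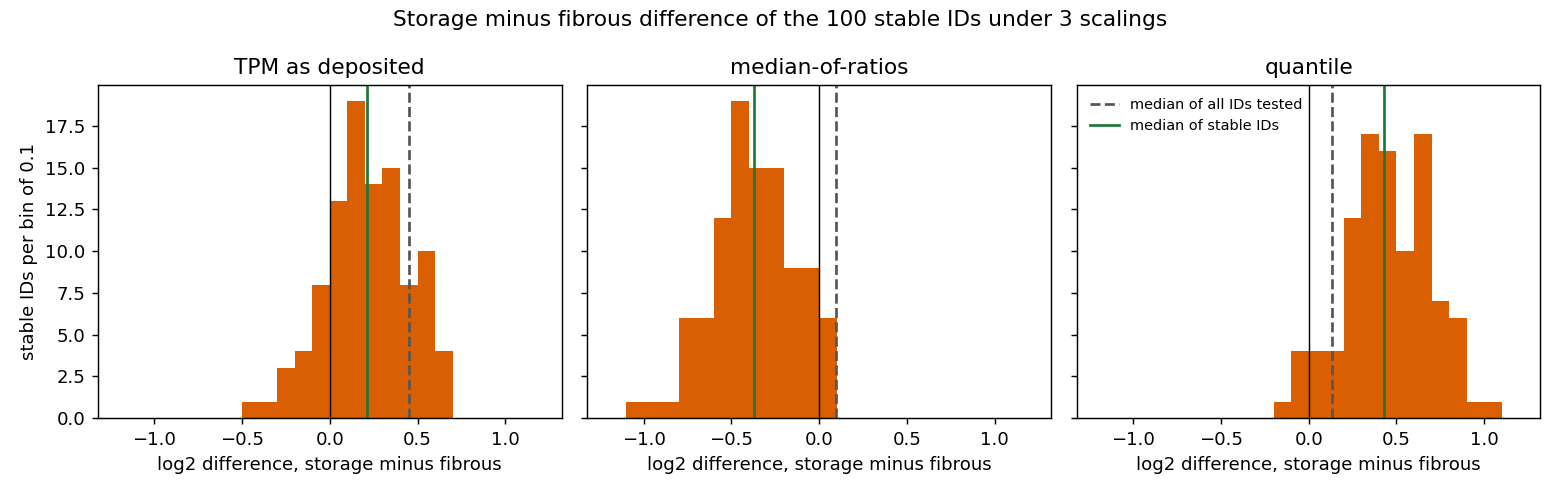
Histograms of the storage minus fibrous log2 difference of the 100 stable IDs in bins of 0.1, for TPM as deposited, median-of-ratios scaling and quantile normalization. The green line is their median (0.22, -0.37 and 0.43) and the dashed line that of all IDs tested (0.45, 0.10 and 0.13). Their position against 0 and against all IDs tested thus depends on the scaling. The other abundant IDs, not drawn, had medians of 0.12, -0.46 and 0.35, below those of the stable IDs on each of these scales.

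In TPM as deposited more stable IDs were called higher than in fibrous roots in pencil roots (53) than in storage roots (41), while quantile normalization gave 57 and 82 and median-of-ratios scaling 0 and 0. As deposited, 53 were higher and 3 lower in pencil than in fibrous roots (limma, adjusted p under 0.05), where 25.9% of all IDs tested were higher and 8.94% lower, and where the 1343 abundant IDs gave 43.4% and 18.8%. Median-of-ratios scaling turned these counts into 0 higher and 16 lower, where 12.8% and 16.3% of all IDs and 17.6% and 28.8% of the abundant IDs were. Quantile normalization gave 57 higher and 2 lower, where 16.3% and 13.5% of all IDs and 44.2% and 15.5% of the abundant IDs were. For 17 stable IDs every pencil library lay above every fibrous one, and for 0 below, where 5.61% and 1.29% of all IDs tested and 18.8% and 5.36% of the abundant IDs did so. Between storage and pencil roots 8 were higher and 11 lower in storage roots, where 29.4% of all IDs tested were higher and 14% lower, and where the abundant IDs gave 16.3% and 41.7%. Median-of-ratios scaling gave 1 higher and 50 lower here, where 22.7% and 18.8% of all IDs and 10.9% and 53.5% of the abundant IDs were. Quantile normalization gave 29 higher and 5 lower, where 22% and 19.2% of all IDs and 26.7% and 36.8% of the abundant IDs were. Every storage library lay above every pencil library for 0 stable IDs and below for 2, where 3.82% and 1.07% of all IDs tested and 2.98% and 8.04% of the abundant IDs did so. Higher in pencil than in fibrous roots and then lower in storage than in pencil roots, both called, were 8 IDs, G38902_TU63770 and MSTRG.71095 among them, where 3.23% of all IDs tested and 7.67% of the abundant IDs were. With median-of-ratios scaling 0 were, against 2.38% of all IDs, and with quantile normalization 4, against 2.87%.

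By stage, the stable IDs as deposited were most often highest at S16 and lowest at either end of the series. In TPM as deposited 51 had their highest stage mean at S16, 20 at S10, 9 at S12, 9 at S20, 7 at S14, 3 at S8 and 1 at S4. The lowest stage mean fell on S20 in 35 IDs, on S4 in 28 and on S8 in 26, and on a pencil stage or S14 in the rest. With median-of-ratios scaling the mean log2 level of the stable IDs was highest at S4, at 7.52, with S16 at 7.24 and S20 at 7.03. With quantile normalization it was lowest at S4, at 7.08, and highest at S16, at 7.62, with S20 at 7.45. From S14 to S16 the median log2 difference as deposited was 0.16 in the stable and 0.12 in the other abundant IDs. From S16 to S20 it was -0.33 and -0.54. Between S16 and S20 17 stable IDs were called lower at S20 (limma), where 4.36% of all IDs tested and 26.1% of the abundant IDs were lower. As higher 0 were called, where 5.05% and 1.86% were. This count was 5 without S20 replicate 1, 7 without S16 replicate 2 or S20 replicate 5, 11 without S16 replicate 4 and 33 without S20 replicate 3. It was 10 with median-of-ratios scaling, 9 with quantile normalization and 9 with the replicate number as a block. Without the 5 libraries in which 10 IDs held over 10% of the TPM it was 10. In the same order 2.99%, 4.55%, 3.66% and 2.71% of all IDs tested were lower. Of the abundant IDs 21.5%, 22.5%, 23.2% and 19.7% were lower. With factors taken from the abundant IDs alone 0 were lower and 15 higher, where 1.82% and 17.5% of all IDs and 14.4% and 9.9% of the abundant IDs were. Between S8 and S10 8 were called higher at S10, where 6.05% of all IDs tested and 13.8% of the abundant IDs were, and 0 lower, where 2.04% and 2.68% were. The count of 8 was 1 without S8 replicate 5 and 12 without S20 replicate 1. It was at most 4 without S8 replicate 2 or any single S10 library. No share of all IDs is given for the counts without 1 library, here or at S20, so they are a description. With median-of-ratios scaling 0 were higher and 3 lower at S10, where 2.56% and 4.79% of all IDs were. Of the abundant IDs 5.58% and 6.7% were. With quantile normalization 12 were higher and 0 lower, where 3.32% and 2.81% of all IDs and 15.3% and 1.64% of the abundant IDs were. Leaving out those 5 libraries, among them S8 replicate 2 and S8 replicate 5, gave 0 higher and 0 lower. Of all IDs 1.22% and 0.622% were then called, and of the abundant IDs 3.5% and 0.596%. Factors from the abundant IDs alone gave 0 higher and 4 lower. There 1.24% and 4.25% of all IDs and 3.87% and 8.04% of the abundant IDs were called.

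The 100 IDs did not vary independently of each other. Over the 28 libraries the correlation of log2(TPM + 1) was above 0 in 86.6% of their 4950 pairs, with a median r of 0.39, and in 86.4% after median-of-ratios scaling, with a median of 0.46. With stage means removed it was above 0 in 82.9% of pairs, with a median of 0.34, so replicates of a stage moved the IDs together too. All these pairs share the same libraries and the same total of TPM. No such correlations are given for the other abundant IDs, so they are not shown to be particular to the list. A single component held 46.3% of the variance of the stable IDs over the libraries, and the next held 16.4%. The pair that kept the steadiest ratio was G22952_TU37546 and G33965_TU55648, picked after the values were seen. Their TPM ratio was 1.54 ± 0.0600 (SD over 28 libraries) and ran from 1.40 to 1.68, while their own SDs of log2(TPM + 1) were 0.24 and 0.25. Over all pairs the SD of the log2 ratio had a median of 0.31 and ran from 0.056 to 0.60, and it was under the smallest single SD of the list in 217 pairs.

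Seen as a whole, the 100 IDs took 1.49% to 2.31% of the TPM of a library. Their mean log2(TPM + 1) stood at 7.19 ± 0.09 (S4) and 7.18 ± 0.15 (S8) in fibrous roots and at 7.46 ± 0.03 (S10) and 7.46 ± 0.07 (S12) in pencil roots. In storage roots it stood at 7.40 ± 0.16 (S14), 7.55 ± 0.05 (S16) and 7.24 ± 0.20 (S20), each a mean and SD over 4 libraries. Fibrous libraries lay between 6.99 and 7.33, below every pencil library (7.35 to 7.51), while storage libraries ran from 6.96 to 7.60 and overlapped both. With median-of-ratios scaling the order of the classes turned round, at 7.51 ± 0.12 in fibrous (n = 8), 7.39 ± 0.10 in pencil (n = 8) and 7.14 ± 0.13 in storage roots (n = 12). With quantile normalization the values were 7.08 ± 0.06, 7.38 ± 0.08 and 7.54 ± 0.11.

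**Figure D4:**
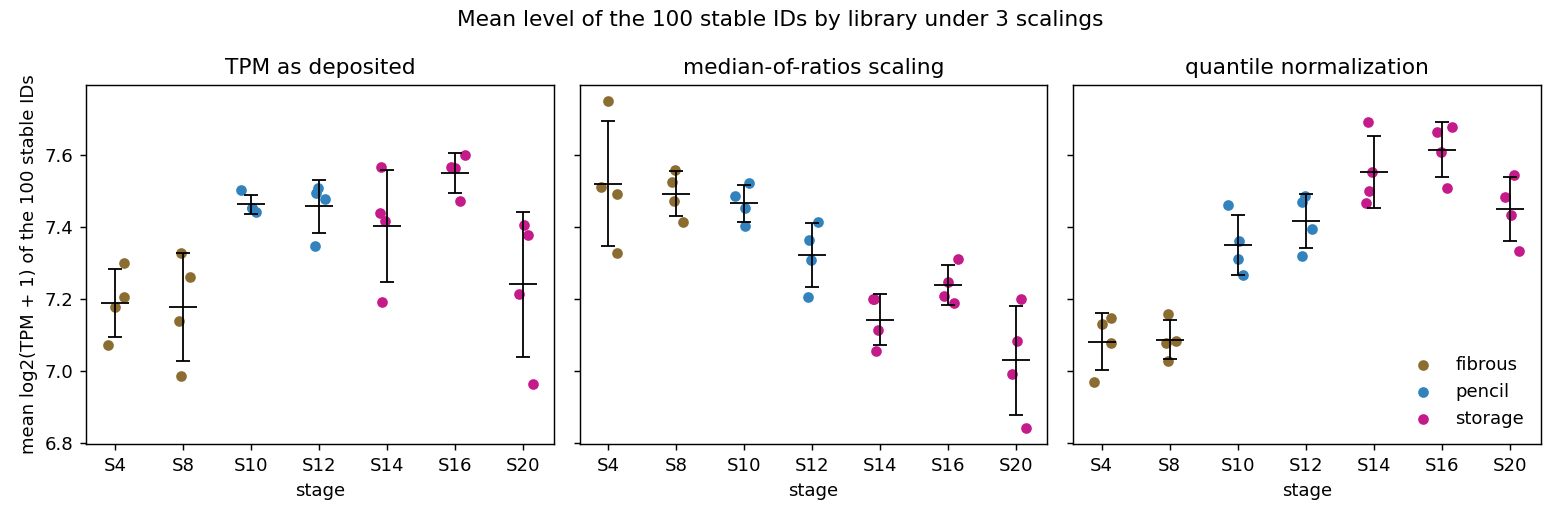
Mean log2(TPM + 1) of the 100 stable IDs in each library by stage, under 3 scalings, with black bars for the stage mean and SD (n = 4). In TPM as deposited S16 is highest at 7.55, while median-of-ratios scaling puts fibrous roots highest and quantile normalization puts them lowest.

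The size factors of the median-of-ratios scaling differed between the root classes, and every value of a library is divided by its factor. They were 0.803 ± 0.0939 in fibrous (SD, n = 8), 1.05 ± 0.0658 in pencil (n = 8) and 1.20 ± 0.0681 in storage libraries (n = 12), taken over the 48439 IDs above 0 in every library. Factors taken over 1303 abundant IDs alone did not run in one direction, at 0.919 ± 0.0660, 1.18 ± 0.0528 and 1.00 ± 0.187. On that scale, chosen after the data were seen, the median log2 difference of the stable IDs between storage and fibrous roots was 0.12, against 0.41 over all IDs tested. On it 35 stable IDs were called higher and 8 lower in storage roots, where 45.2% and 17.5% of all IDs and 40.8% and 39.5% of the abundant IDs were. G12675_TU20795, the ID with the largest storage minus fibrous difference in TPM, had the smallest SD of all 1318 IDs with a mean of 100 or more after median-of-ratios scaling, 0.12, against 0.32 in TPM as deposited. G14940_TU24362 stood at place 446 on that scale, with an SD of 0.52, and at place 13 after quantile normalization, with 0.22.

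Libraries in which a few IDs took much of the TPM lay in the lower part of the range for the stable IDs. The 10 most abundant IDs of a library held 10.5% to 12.6% of its TPM in 5 libraries, S4 replicate 1, S8 replicate 2, S8 replicate 5, S14 replicate 5 and S20 replicate 1. The mean log2(TPM + 1) of the stable IDs was 6.96 to 7.19 in those 5 and 7.07 to 7.60 in the other 23, where the 10 IDs held 2.91% to 9.10%. Within storage roots the 2 such libraries stood at 6.96 and 7.19 and the other 10 at 7.21 to 7.60. Within fibrous roots the 3 such libraries stood at 6.99 to 7.18 and the other 5 at 7.07 to 7.33, and no pencil library was of this kind. S20 replicate 1 held the highest single value of the series, 28099 TPM for 1 ID, and was the lowest library for 43 stable IDs and the highest for 5. S16 replicate 4 was the highest library for 23. The part of these dominant IDs in the differences between stages was not tested. Without those 5 libraries 47 stable IDs were called higher and 3 lower in storage than in fibrous roots (limma), where 41.5% and 16% of all IDs and 43.3% and 38.5% of the abundant IDs were.

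**Figure D5:**
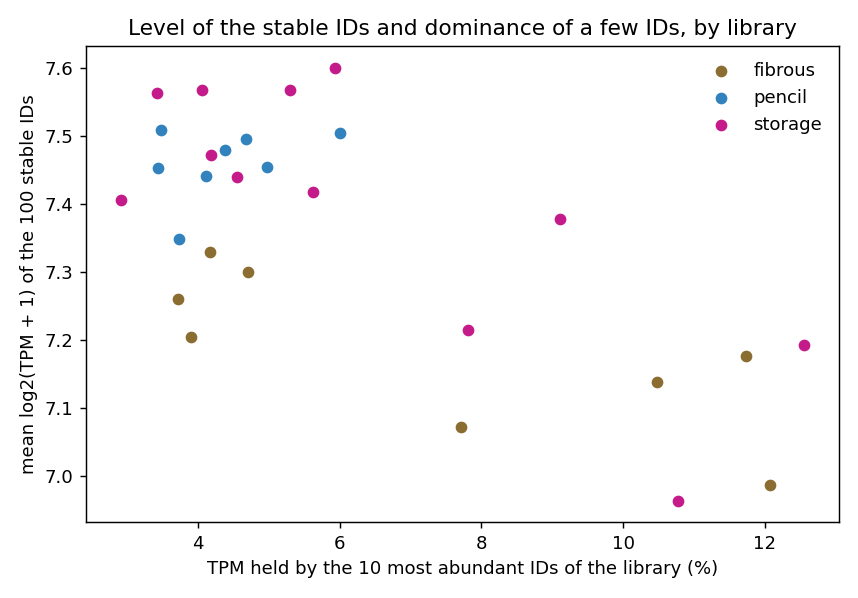
Each point is a library, with the percentage of TPM held by its 10 most abundant IDs on the horizontal axis and the mean log2(TPM + 1) of the 100 stable IDs on the vertical axis, coloured by root class. The 5 libraries above 10% lie at 6.96 to 7.19, in the lower part of the range.

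The rule did not use the kind of ID or the other rows of a locus. Of the 100, 95 carried a G and TU number and 5 the prefix MSTRG, and MSTRG IDs made up 7.74% of the abundant IDs and 24.3% of all rows. The 95 came from 94 G numbers. Other rows with the same G number existed for 36 of them (37.9%), near the 40.1% of the 1239 abundant IDs of this kind. Among these 36 the stable row held a median of 90.4% of the TPM of its G number, over 90% in 19 and under 50% in 4. Summing the rows of a G number gave a smaller SD than the stable row in 17 of 36, and the sum stayed within the SD limit of the list in 32. Reads of near-identical copies, which a hexaploid genome holds, could be assigned to either row, so levels of single rows are uncertain.

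G16522 was the G number with 2 stable rows, and it had no other rows. G16522_TU26994 held 211 ± 34.5 TPM in fibrous (SD, n = 8), 226 ± 23.6 in pencil (n = 8) and 207 ± 38.2 in storage roots (n = 12), and G16522_TU26993 held 107 ± 22.7, 132 ± 12 and 116 ± 21.2 TPM in the same order. The SD of their sum was 0.23 on the log2 scale, below 0.24 and 0.28 for the rows alone. Rows beside a stable row could vary far more. G39555_TU64885 held 123 ± 19.0, 100.1 ± 21.5 and 104 ± 21.1 TPM, while the other row of its G number had a mean of 3.51 TPM and an SD of 1.60 on the log2 scale. G19184_TU31354 held 519 ± 68.4, 567 ± 35.6 and 528 ± 114 TPM and 95.7% of its G number. One of its other rows, G19184_TU31355, singled out after the values were seen, held 1.04 ± 1.26 TPM in fibrous, 8.69 ± 2.63 in pencil and 7.84 ± 1.94 in storage roots. G24368_TU39936 held 143 ± 17.5, 154 ± 17.9 and 132 ± 21.9 TPM and 98.7% of its G number, beside a row with a mean of 1.93 TPM.

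Membership depended on the rule to different degrees. Leaving out any single library kept 86 to 98 of the 100, and 68 were kept whichever library was left out. The same rule kept 42 after median-of-ratios scaling, 77 after quantile normalization and 26 under all 3 scalings. It kept 90 with the coefficient of variation of TPM, 71 with the SD of the 7 stage means and 64 with the pooled SD within stages. Ranking the abundant IDs by the mean SD of their log2 ratio to each other, which dividing a library by a factor does not alter beyond the pseudocount, kept 52. The 3 scalings, every single library left out and the 4 other measures of spread (coefficient of variation, range, stage means, within stages) left 18 IDs in common. G10230_TU16815, MSTRG.32084 and G39584_TU64944 were among these 18, and G12461_TU20479 and G11855_TU19511 were not.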

How the data were processed

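The authors deposited 1 table of TPM values with 28 library columns and 99697 rows. TopHat2 2.0.0 and RSEM 1.3.1 are named per the submitters' processing notes, with no role, and the build and annotation are not given in the sources used here. TPM is scaled to a fixed total and keeps no depth, so no counting interval was computed. Library preparation used total RNA and the Illumina TruSeq kit, per the labels' protocols.

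The list was rebuilt from the table by its rule. Its members and the lists, tests and IDs named were chosen with earlier results of these data known. Values were analysed as log2(TPM + 1), so differences of low IDs are understated. A model with 7 stage means over 28 libraries was fitted with limma 3.58.1 (R 4.3.3) and a trended prior to the 75757 IDs that reached 1 TPM in 4 or more libraries, and root classes were unweighted means of stage means. Calls used a Benjamini-Hochberg adjusted p under 0.05 over all IDs tested. Median-of-ratios factors and quantile normalization were computed from the TPM. IDs were named by rank: the 5 smallest SDs, the 3 highest means, the limits of the rule, the 2 largest called differences in each direction, the extremes of variance between stages and 3 loci with varying rows. The fit was also run on simulated data with independent noise for each ID and library. Those data hold no shifts shared by the IDs of a library, so they do not test the choice of scaling. Python 3.11.15, NumPy 2.4.6, pandas 2.3.3 and Matplotlib 3.10.9 were used. The highest correlation between any pair of libraries was 0.93 (Pearson's r), so no pair was treated as 1 library. Replicates are biological per the labels' protocols, and p-values measure the spread between them. Alternatives were other pseudocounts, filters, scalings, measures of spread, a replicate block and leaving out each library. Scaling by abundant IDs alone, leaving out 5 libraries and both comparisons of neighbouring stages were chosen after seeing the data.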

Additional observations from a re-analysis of the deposited data

Results flagged for a closer look

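In 6 of 147 groups of 4 libraries looked at, 1 library stood far from the other 3 by Dixon's criterion, and chance gives about 1 in 20. G10230_TU16815 was 165 TPM in S4 replicate 1 against 143 to 145 in the others. MSTRG.32084 was 223 TPM in S14 replicate 2 against 209 to 210.4. In S14 replicate 4, G12461_TU20479 was 243 TPM against 203 to 207 and G11855_TU19511 was 176 TPM against 126 to 132. G26659_TU43790 was 115 TPM in S16 replicate 3 against 91.1 to 93.7. The ID just outside the list, G30556_TU50058, was 370.5 TPM in S4 replicate 1 against 717 to 772.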

How the results depend on the processing

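Directions rested on the scaling. The median storage minus fibrous log2 difference of the stable IDs was 0.22 as deposited, -0.37 under median-of-ratios and 0.43 under quantile normalization, and the difference of their mean per library was 0.22, -0.37 and 0.46. Median-of-ratios scaling called 0 higher and 70 lower (storage against fibrous), 0 and 16 (pencil against fibrous) and 1 and 50 (storage against pencil). Quantile normalization called 82 and 0, 57 and 2, and 29 and 5, with 74 in the F test. With factors from the abundant IDs alone, an alternative chosen after seeing the data, they were 35 and 8, 1 and 14, and 37 and 2. In the same order 45.2% and 17.5%, 11.5% and 14%, and 39% and 9.27% of all IDs were called. Of the abundant IDs 40.8% and 39.5%, 21.8% and 27.3%, and 30.6% and 35.5% were. The factors differ by class, and quantile normalization uses none. As 1 is added before the log, a factor shifts IDs of few TPM less than abundant ones. With median-of-ratios scaling the median storage minus fibrous difference over all IDs tested went from 0.45 to 0.10. With the replicate number as a block 4 were called lower in storage than in fibrous roots, against 2, and 9 lower at S20 than at S16, against 17. The block moved no other count of the F test or the class comparisons by over 1.5 times. Same-numbered libraries did not deviate together, with a median correlation of -0.0047 and 8 of 66 pairs over 0.1, so the numbers were not taken to pair the libraries.

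Without 1 library in turn, the F test gave 43 to 66 stable IDs. No share of all IDs is given for the fits without a library, so their counts are a description. The comparison of storage with fibrous roots gave 35 to 51 higher and 2 to 4 lower, with 4 without S4 replicate 4, S8 replicate 5 or S20 replicate 3. Pencil against fibrous roots gave 38 to 57 and 2 to 4, storage against pencil roots 6 to 10 and 9 to 15, and the median difference 0.18 to 0.24. The list kept 35 IDs with a mean limit of 50 TPM, 25 with 200, 42 with median-of-ratios scaling, 64 with the pooled SD within stages and 52 with log2 ratios, and 86 to 98 without a library. A higher mean limit admits fewer of these IDs by construction. Pseudocounts of 0.1 and 5 and other filters on low values moved none of the F and class counts by over 1.5 times.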
